A study of Mus musculus with 24 samples.

Results

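The genes described here are 43 collagens and other genes of the extracellular matrix, the protein scaffold around cells. They were taken from a fixed list of names, which was chosen with earlier results of these data known. All 43 were found, each under 1 Ensembl gene ID, among 54752 gene IDs, of which 33803 had a count in some library. By role, the list holds 6 fibrillar collagens, 14 genes of the basement membrane, 5 other collagens, 8 glycoproteins and elastic fibre genes, 3 small leucine-rich proteoglycans and 7 genes of collagen processing, crosslinking and turnover. The basement membrane genes were kept apart from the fibrillar ones throughout.

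In skeletal muscle every fibre is wrapped in a basement membrane, a sheet of laminins and type IV collagen tied together by nidogens and perlecan, which fibres grip through integrins and dystroglycan. Outside it lies an interstitial matrix of collagen I, III and V fibrils, collagen VI microfilaments and proteoglycans, made mostly by fibroblasts and fibro-adipogenic progenitors, the mesenchymal cells between fibres. Collagen chains are modified and folded in the endoplasmic reticulum, where Serpinh1 (the chaperone HSP47) binds them, and are crosslinked outside the cell by lysyl oxidases.

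RNA of mouse gastrocnemius, the large calf muscle, was sequenced in 24 libraries that form 8 groups of 3. Every group carried floxed alleles of Numb and Numbl, 2 endocytic adaptor genes. The transgene groups (HSA-MCM with Numb(f/f) and NumbL(f/f)) also carried MerCreMer, a Cre recombinase activated by tamoxifen, driven by the promoter of human skeletal actin, a gene of muscle fibres and not of the mesenchymal cells between them. The flox groups (Numb(f/f) and NumbL(f/f) alone) had no transgene and served as the genotype control. The groups were transgene females given tamoxifen and transgene females given vehicle, flox females given tamoxifen and flox females given vehicle, and the same 4 for males. By this design tamoxifen activates the recombinase in muscle fibres of transgene mice, and in flox mice it is the drug without the recombinase. The sources used here do not give ages, dose or the time after treatment. In the 3 libraries of vehicle-treated transgene males the title says vehicle and the treatment field says tamoxifen, and they were placed by title. Each comparison with that group rests on the title, and no value of it can be had without these 3 libraries. The 6 flox males are titled WT and were placed by the genotype field. Transgene females, flox females and males lie in separate count tables. A genotype difference between females, or a sex difference, cannot be told apart from a difference between tables.

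Libraries held 21516819 to 43014516 counts. Fast muscle transcripts dominated, with Myh4 at 45868 to 96764 CPM (counts scaled to library size), as the tissue label says. Esr1, part of whose sequence is in MerCreMer, stood at 399 to 1951 CPM in transgene libraries, against 22.8 to 42.1 CPM in flox libraries. Numb had 18.9 to 19.1 CPM in tamoxifen-treated and 20.7 to 23.8 CPM in vehicle-treated transgene females, and 17.5 to 19.8 CPM in tamoxifen-treated and 21.1 to 25.3 CPM in vehicle-treated flox females. In transgene males it had 17.2 to 19.98 CPM after tamoxifen and 18.1 to 20.6 CPM after vehicle, and in flox males 15.3 to 16.5 CPM after tamoxifen and 16.9 to 19.99 CPM after vehicle. Numb was thus lower after tamoxifen without overlap in both flox groups, which lack the recombinase, and in transgene females, and overlapped in transgene males. Numbl had 3.83 to 5.13 CPM after tamoxifen and 2.67 to 3.86 CPM after vehicle in transgene females, and 3.12 to 4.75 CPM after tamoxifen and 2.82 to 3.19 CPM after vehicle in transgene males. These Numbl ranges overlapped, and in flox mice of both sexes Numbl was higher after tamoxifen without overlap. Which exons are floxed is not given in the sources read here, so these whole-gene counts do not check the deletion. The 43 matrix genes together took 0.165% to 0.338% of a library's counts.

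Per length, the most abundant matrix transcript was Aebp1 (a collagen-binding protein also called ACLP), with a median of 48.9 CPM per kilobase of exon over the 24 libraries. Sparc, a collagen-binding glycoprotein, followed with 42.4 CPM per kilobase, Lamb2, the laminin beta-2 chain of the muscle basement membrane, with 28.7, and Dcn (decorin, a proteoglycan that binds collagen fibrils) with 26.0. On the same scale the main fibril chains were lower, at 10.3 for Col3a1, 9.30 for Col1a1 and 6.91 for Col1a2. Type IV collagen chains stood at 14.6 for Col4a1 and 14.4 for Col4a2. At the other end were Tnc, a matrix protein of tendon and injured tissue, with 0.274 CPM per kilobase, Timp1, an inhibitor of matrix proteases, with 0.430, and Col8a1 with 0.453. Timp1 had as few as 2 counts in a library, so its folds are imprecise. Npnt (nephronectin, a basement membrane ligand of integrin alpha-8 beta-1) had the widest range of the genes above 1 CPM, 2.75 to 31.1 CPM, or 11.3-fold. The order above is over all libraries together and need not hold in each sex. Aebp1 had a median of 288 CPM in females and 156 CPM in males, and Sparc 160 and 162 CPM.

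**Figure D1:**
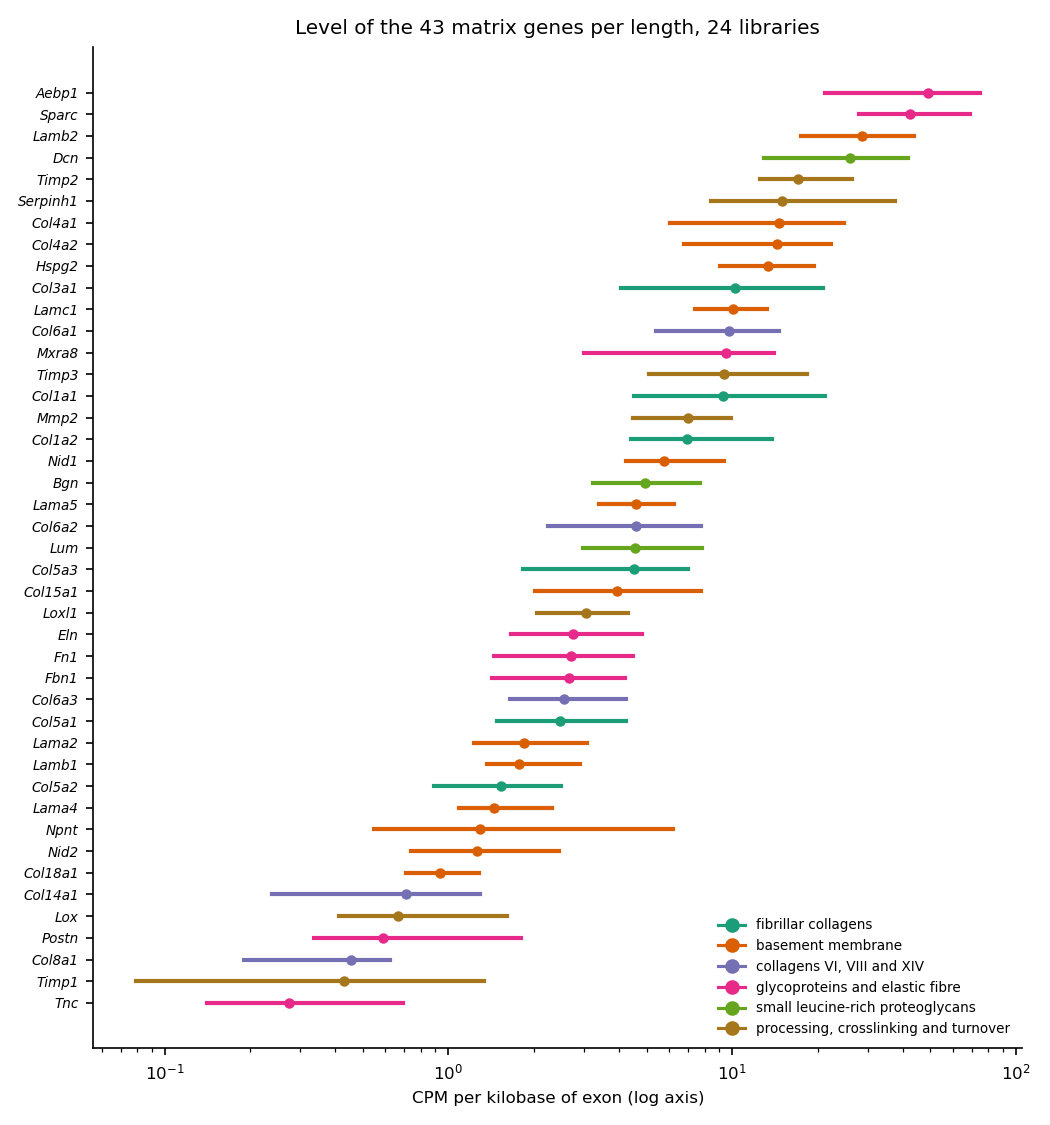
Level of each of the 43 matrix genes in CPM per kilobase of exon, on a log axis. The point is the median and the line the range over 24 libraries, coloured by role. Aebp1, Sparc, Lamb2 and Dcn lead, and Tnc, Timp1 and Col8a1 are lowest.

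Tests were made with edgeR's quasi-likelihood test, adjusted with the Benjamini-Hochberg method over all genes tested, and a gene passed at an adjusted p under 0.05. All 43 matrix genes passed the filter on low counts in every comparison. Among females no matrix gene passed: 0 of 43 in transgene females, where 1.32% of all genes passed, and 0 of 43 in flox females, where 0.131% of all genes passed. In transgene females 3 matrix genes were higher and 3 lower at an unadjusted p under 0.05, where 8.23% and 8.55% of all genes were, DESeq2 called 2 (Aebp1 and Timp3) and limma-voom 0. In flox females the unadjusted counts were 4 and 4, where 4.37% and 4.28% of all genes were, and DESeq2 and limma-voom each called 0. In transgene males 1 of 43 rose with tamoxifen and 0 fell, where 0.512% of all genes rose and 0.378% fell. In flox males 4 of 43 fell and 1 rose, where 1.54% of all genes fell and 1.35% rose. Between transgene and flox males after tamoxifen 5 of 43 were higher in transgene males and 0 lower, where 2.76% of all genes were higher and 2.46% lower. After vehicle 1 of 43 was lower in transgene males and 0 higher, where 0.563% of all genes were lower and 0.384% higher.

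The fold changes of the matrix genes, past the threshold or not, lay mostly above 0 in transgene males and mostly below 0 in flox males. In transgene males 37 of the 43 log2 fold changes (tamoxifen over vehicle) were above 0, with a median of 0.29, against a median of 0.01 for all genes. In flox males 11 of 43 were above 0, with a median of -0.23, against -0.01 for all genes. Values above 0 in transgene males and below 0 in flox males were found for 28 of 43 matrix genes (65.1%), which share no library between their comparisons, and for 22.0% of all genes. All 6 fibrillar collagens were among the 28, with 8 of the 14 basement membrane genes. In females the same pattern held for 7 of 43 (16.3%), against 20.7% of all genes. Most of these single values did not pass the test, and the difference between the male responses is tested below. Matrix genes moved together by library. Among males, flox vehicle library 3 was the lowest of its group for 40 of the 43, flox tamoxifen library 3 for 30 and transgene vehicle library 3 for 28. The 43 genes are therefore not independent observations, and they were chosen with earlier results known. Here and in the counts below, the shares of all genes give scale and are no test.

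**Figure D2:**
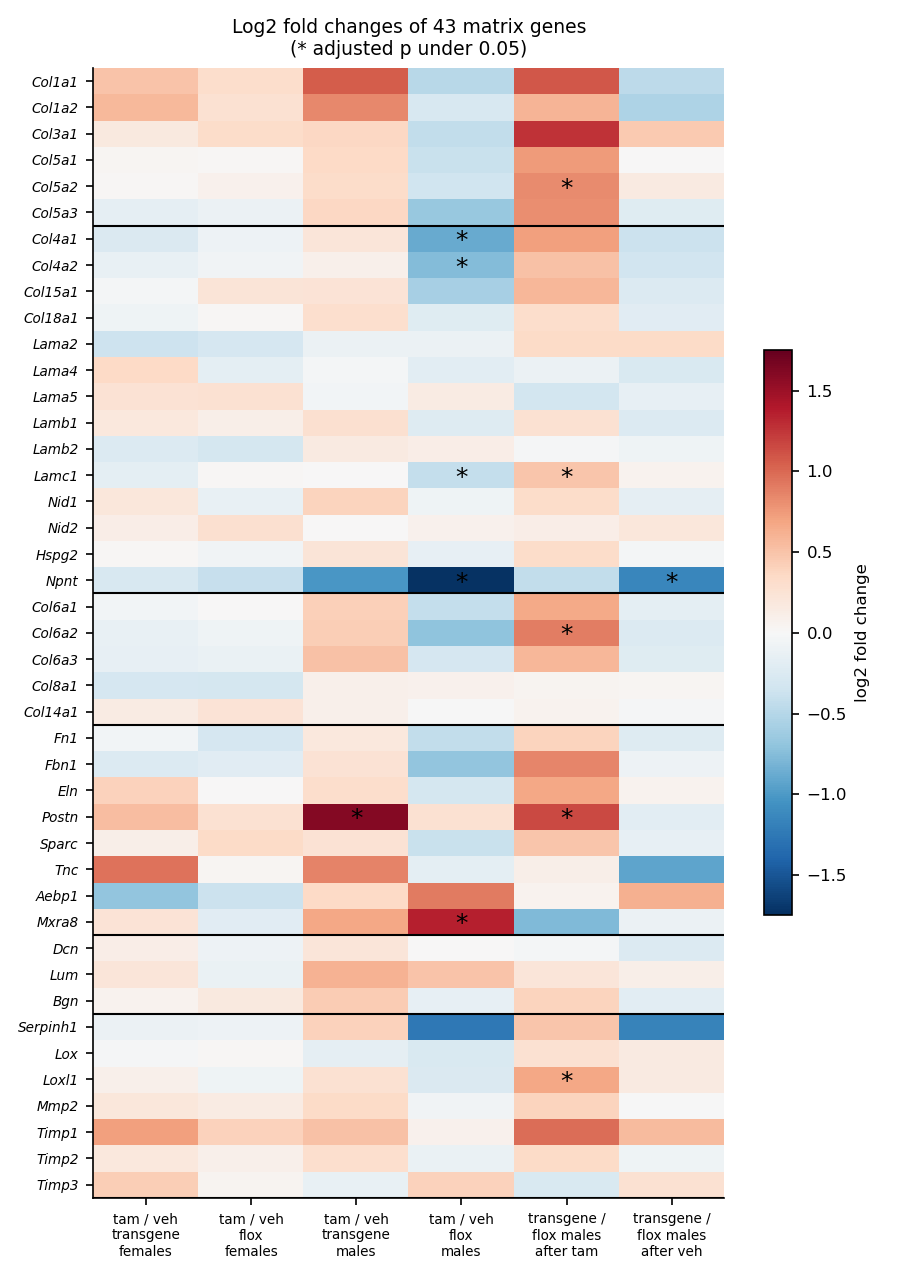
Log2 fold changes of the 43 matrix genes (rows, grouped by role with lines between roles) in 6 comparisons (columns), with the first-named group over the second. Red is higher and blue lower, and a star marks an adjusted p under 0.05. The fibrillar collagens at the top are red in transgene males and blue in flox males, with no star in either column.

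Among basement membrane genes, Npnt fell most with tamoxifen in flox males. It had 8.19, 9.27 and 6.43 CPM in tamoxifen libraries, against 31.1, 27.0 and 20.7 CPM in vehicle libraries of flox males. No tamoxifen library reached any vehicle library. Its log2 fold change was -1.72 ± 0.23 (SE), with an adjusted p of 0.00305 by edgeR, and it passed in all 11 alternative analyses. In transgene males it had 6.89, 6.40 and 4.44 CPM after tamoxifen, against 9.08, 15.7 and 11.0 CPM after vehicle, again without overlap, but the log2 fold change of -1.01 ± 0.23 did not pass (adjusted p = 0.0789). After vehicle Npnt was lower in transgene males than in flox males by a log2 fold change of -1.15 ± 0.22 (adjusted p = 0.0385). That call was lost without transgene vehicle library 1 or 3, without flox vehicle library 1 or 2, or with these 2 groups alone in the fit, where the largest adjusted p was 0.139. The vehicle-treated flox males were the high group, at 26.3 ± 5.24 CPM (SD, n = 3). The other 7 groups had means of 3.35 to 11.9 CPM.

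Both type IV collagen chains fell with tamoxifen in flox males. Col4a1 and Col4a2 encode the 2 chains of the main basement membrane collagen and lie head to head on chromosome 8, with Ensembl gene bodies at chr8:11198423-11312826 (minus strand) and chr8:11312805-11449287 (plus strand). Their RefSeq start sites are 21 bases apart in GRCm38.p6, so the windows from 250 bases before to 50 bases after each start share 78 bases. The windows are printed because this pair moved together, chr8:11312777-11313076 on the minus strand for Col4a1 and chr8:11312555-11312854 on the plus strand for Col4a2, 5′ to 3′ on the strand of each gene, with the shared bases in capitals.
Col4a1: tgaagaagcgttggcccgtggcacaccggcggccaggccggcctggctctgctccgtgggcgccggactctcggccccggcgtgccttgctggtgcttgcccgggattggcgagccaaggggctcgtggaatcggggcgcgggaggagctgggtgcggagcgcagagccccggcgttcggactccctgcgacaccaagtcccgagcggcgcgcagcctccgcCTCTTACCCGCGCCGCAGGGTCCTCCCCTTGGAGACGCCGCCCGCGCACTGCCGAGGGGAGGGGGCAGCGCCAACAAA
Col4a2: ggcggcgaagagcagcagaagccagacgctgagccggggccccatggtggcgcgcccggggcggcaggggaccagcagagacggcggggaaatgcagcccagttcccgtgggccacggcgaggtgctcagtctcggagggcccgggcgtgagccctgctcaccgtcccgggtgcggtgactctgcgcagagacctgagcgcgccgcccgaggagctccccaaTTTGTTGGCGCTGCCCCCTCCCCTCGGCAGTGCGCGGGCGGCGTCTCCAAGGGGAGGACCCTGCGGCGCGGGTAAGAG
Both windows hold CCAAT, searched as these letters on both strands, as do 37.4% of 32851 windows of the same length over all genes and 10 of the 35 windows of matrix genes. GGGCGG, also searched on both strands, was found in 25 of the 35 matrix gene windows, these 2 included, and in 35.7% of all windows. Windows were at hand for 30 of the 43 genes.

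Col4a1 had 65.7, 76.0 and 45.2 CPM in tamoxifen libraries of flox males, against 147, 117 and 80.3 CPM in vehicle libraries. Col4a2 had 60.8, 72.0 and 44.6 CPM after tamoxifen, against 117, 108 and 74.2 CPM after vehicle. For both chains every tamoxifen library was below every vehicle library, by a small margin between the highest tamoxifen and the lowest vehicle library. The log2 fold change was -0.88 ± 0.20 for Col4a1 (adjusted p = 0.0445) and -0.75 ± 0.17 for Col4a2 (adjusted p = 0.0376). Of the exon length of Col4a1 0.29% overlaps Col4a2. Of the exon length of Col4a2 0.98% overlaps other genes, which are Col4a1 and Gm15419. Counts in these overlaps are uncertain because the strand setting of the counting is not given. Both calls were lost without vehicle library 1 or 2, without tamoxifen library 1 or 3, and with these 2 groups alone in the fit, and that of Col4a1 also without a filter on low counts, with adjusted p of up to 0.151 for Col4a1 and 0.147 for Col4a2. In transgene males the values were 0.21 ± 0.20 and 0.10 ± 0.17, neither past the threshold.

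Lamc1, the laminin gamma-1 chain shared by most basement membrane laminins, also fell in flox males. It had 62.6, 63.1 and 61.3 CPM after tamoxifen, against 82.4, 91.9 and 76.4 CPM after vehicle in flox males. The tamoxifen libraries lay close together below all vehicle libraries (log2 fold change -0.42 ± 0.10, adjusted p = 0.0376). After tamoxifen it had 82.3, 90.5 and 89.7 CPM in transgene males, above the same 3 flox libraries, with a log2 fold change of 0.48 ± 0.10 (adjusted p = 0.0153). Both calls on Lamc1 use the tamoxifen-treated flox males. The call within flox males was kept without vehicle library 3 and lost without any other of these 6 libraries (edgeR adjusted p up to 0.154). The call between the genotypes was lost without transgene tamoxifen library 3 or any 1 of the flox tamoxifen libraries (edgeR adjusted p up to 0.0639).

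In flox males the count of 5 rested on single libraries. It was 2 (Npnt and Mxra8) without vehicle library 1, tamoxifen library 1 or tamoxifen library 3, it was 3 without vehicle library 2, and 9 without vehicle library 3. Without tamoxifen library 2 it stayed at 5, with Col15a1 in place of Lamc1. Vehicle library 3 was the lowest of its group for 40 of the 43 matrix genes. Without overlap of the groups, 4 matrix genes were higher after tamoxifen (Lama5, Aebp1, Mxra8 and Timp3) and 6 lower, where 13.3% and 14.7% of all genes were.

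The other basement membrane genes did not pass in any comparison of groups. Lamb2, the laminin beta-2 chain, was lower in every tamoxifen than in every vehicle library of females of both genotypes. In transgene females it had 195, 208 and 221 CPM after tamoxifen, against 237, 250.5 and 255 CPM after vehicle (log2 fold change -0.24 ± 0.08, adjusted p = 0.190). In flox females it had 197, 201 and 191 CPM after tamoxifen, against 265, 226 and 239 CPM after vehicle (log2 fold change -0.31 ± 0.09, adjusted p = 0.368). Lama5, the laminin alpha-5 chain found in vessel walls and at the synapse, went the other way, with 70.8, 59.0 and 68.1 CPM after tamoxifen, against 53.8, 53.4 and 57.7 CPM after vehicle in flox females (log2 fold change 0.26 ± 0.09, adjusted p = 0.411). Lama2, the laminin alpha-2 chain lost in a congenital muscular dystrophy, had 22.3, 23.4 and 28.1 CPM after tamoxifen, against 31.2, 30.0 and 29.2 CPM after vehicle in flox females (log2 fold change -0.29 ± 0.10, adjusted p = 0.445). Non-overlapping groups were found for 3 higher and 2 lower of the 43 genes in transgene females, where 10.1% and 12.3% of all genes had them. They were found for 1 higher and 5 lower in flox females, where the shares of all genes were 6.90% and 7.33%.

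Of the 6 fibrillar collagens 1 passed between the genotypes in tamoxifen-treated males. Col5a2, a chain of collagen V, which starts collagen fibrils and sets their width, was higher in transgene males after tamoxifen. It had 18.8, 16.8 and 15.9 CPM in transgene males, against 9.26, 10.6 and 9.10 CPM in flox males after tamoxifen. The groups were far apart (log2 fold change 0.82 ± 0.18, adjusted p = 0.0192), but the call was lost when flox tamoxifen library 1, 2 or 3 was left out, with an adjusted p of up to 0.0816. For Col3a1, the chain of collagen III, the values were 139, 137 and 129.8 CPM in transgene males, against 39.7, 86.6 and 42.7 CPM in flox males after tamoxifen. Here the groups did not overlap either, but the flox libraries were spread, and a log2 fold change of 1.26 ± 0.34 did not pass (adjusted p = 0.0663). All 6 fibrillar collagens had log2 fold changes above 0, with a median of 0.82, against -0.01 for all genes.

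Non-overlapping groups were found for 5 of the 6 fibrillar collagens, the exception being Col1a2. Over all 43 matrix genes 21 were higher without overlap in transgene males after tamoxifen and 3 lower (Lama5, Mxra8 and Timp3), where 13.6% and 13.9% of all genes were. After vehicle the counts were 1 higher (Aebp1) and 2 lower (Npnt and Serpinh1), where 11.5% and 11.4% of all genes were.

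With tamoxifen against vehicle in transgene males, Col1a1 had 94.8, 139 and 114 CPM after tamoxifen, against 62.1, 45.0 and 59.9 CPM after vehicle. Col1a2 had 119, 172 and 153 CPM after tamoxifen, against 95.7, 67.5 and 84.2 CPM after vehicle. These are the chains of collagen I, the main fibril protein, and in both the groups were apart without passing the test, with a log2 fold change of 1.06 ± 0.32 for Col1a1 (adjusted p = 0.247). DESeq2 called both, and limma-voom neither. Of the 43 genes 14 were higher without overlap in transgene males, 3 of them fibrillar and 5 of the basement membrane, and 1 was lower (Npnt). Of all genes 6.69% were higher and 7.11% lower without overlap.

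The summed level of the 6 fibrillar collagens was 426, 525 and 469 CPM in tamoxifen libraries of transgene males, against 362, 263 and 278 CPM in their vehicle libraries. In flox males the sum was 257, 331 and 166 CPM after tamoxifen, against 419, 349.9 and 227 CPM after vehicle. In transgene males the groups were apart and in flox males they overlapped. In females the sum was 259.8, 604 and 331 CPM after tamoxifen and 306, 419.7 and 272 CPM after vehicle in transgene mice. In flox females it was 309.6, 311 and 289.9 CPM after tamoxifen and 258, 267 and 261 CPM after vehicle, a small gap with no overlap. Tamoxifen library 2 of the transgene females stood apart and was the highest of its group for 37 of the 43 matrix genes, and the number of genes above 0 in that comparison ranged from 10 to 32 of 43 as single libraries were left out.

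**Figure D3:**
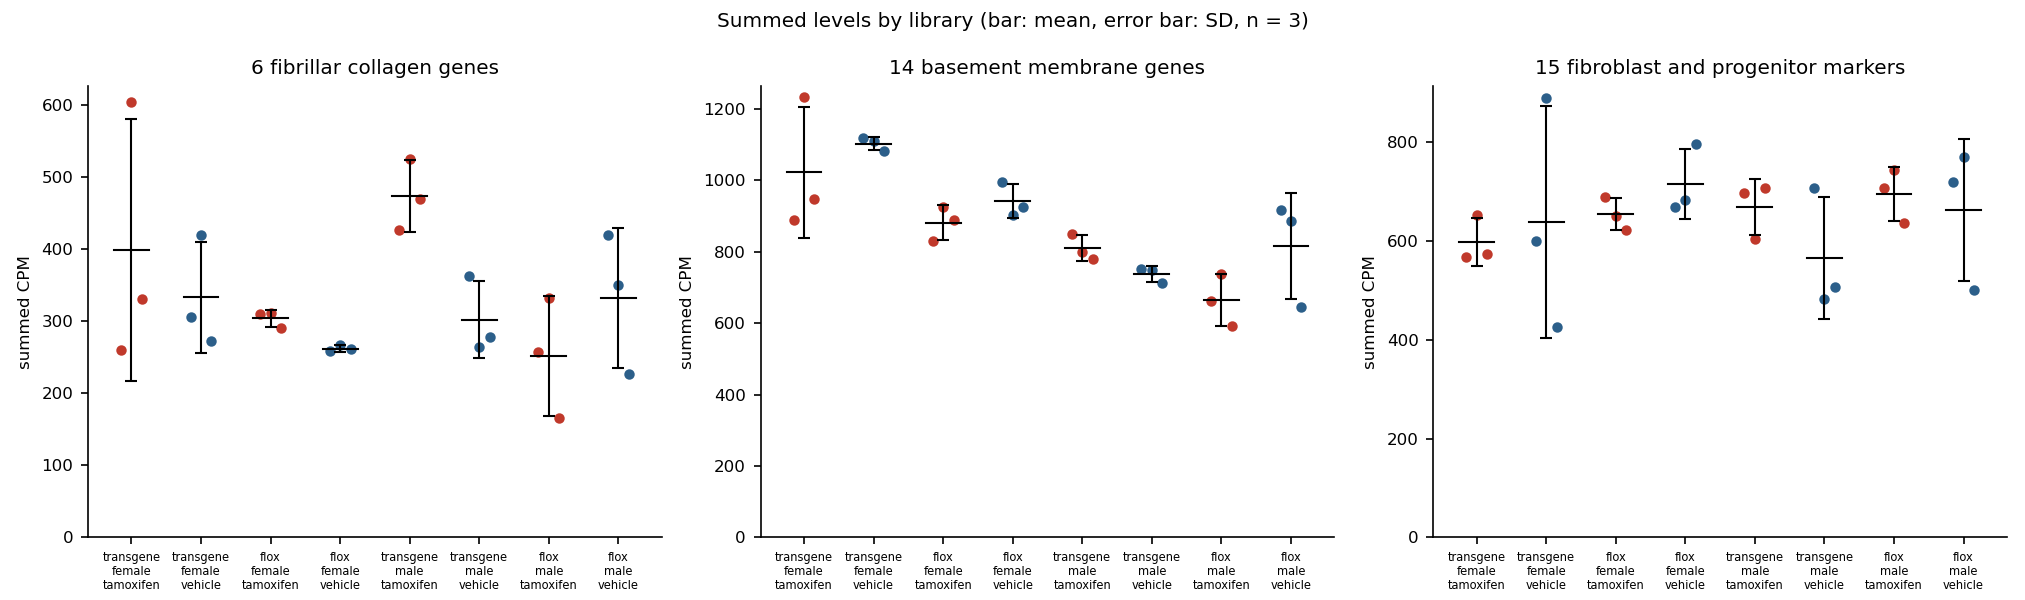
Summed CPM of 6 fibrillar collagens (left), 14 basement membrane genes (middle) and 15 markers of fibroblasts and their progenitors (right) in each library, with the mean (bar) and SD (error bar, n = 3) of each group. Red is tamoxifen and blue vehicle. For the fibrillar collagens the tamoxifen-treated transgene males, at 426 to 525 CPM, lie above all other male libraries.

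Collagen VI forms beaded filaments between the basement membrane and the interstitial fibrils. Its chain Col6a2 was higher in transgene males after tamoxifen, with 42.3, 41.5 and 43.3 CPM in transgene males, against 22.7, 27.0 and 18.7 CPM in flox males. The log2 fold change was 0.89 ± 0.21 (adjusted p = 0.0312 by edgeR). The call was lost when any 1 of these 6 libraries was left out and without a filter on low counts, with an adjusted p of up to 0.114. The partner chains Col6a1 and Col6a3 were also without overlap between these groups and did not pass. In the plain tamoxifen comparisons none of the 5 collagens of this class (Col6a1, Col6a2, Col6a3, Col8a1, Col14a1) passed by edgeR. At an unadjusted p under 0.05 there were 1 higher in transgene males, where 4.89% of all genes were, and 1 lower in flox males, where 9.37% of all genes were.

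Postn (periostin, a secreted protein that binds collagen I and is known to rise in healing and fibrotic tissue) was the matrix gene that rose in transgene males. It had 14.9, 9.47 and 9.42 CPM in tamoxifen libraries, against 4.10, 4.01 and 2.92 CPM in vehicle libraries of transgene males. All tamoxifen libraries were well above all vehicle libraries. The log2 fold change was 1.61 ± 0.25, with an adjusted p of 0.00842 by edgeR, and it passed in all 11 alternatives with values of 1.37 to 1.72. In flox males it had 3.60, 5.71 and 5.78 CPM after tamoxifen, against 5.53, 3.89 and 3.11 CPM after vehicle, and these groups overlapped. After tamoxifen it was higher in transgene than in flox males by a log2 fold change of 1.16 ± 0.25 (adjusted p = 0.0189). Of the transgene females, tamoxifen library 2 had 15.7 CPM and the other 2 tamoxifen libraries 6.26 and 5.81 CPM, against 5.24, 6.85 and 7.16 CPM after vehicle. Its promoter window is printed because it is the gene that rose, chr3:54360857-54361156 on the plus strand of GRCm38.p6, from RefSeq, with TATAAA in capitals, 26 bases before the start.
Postn: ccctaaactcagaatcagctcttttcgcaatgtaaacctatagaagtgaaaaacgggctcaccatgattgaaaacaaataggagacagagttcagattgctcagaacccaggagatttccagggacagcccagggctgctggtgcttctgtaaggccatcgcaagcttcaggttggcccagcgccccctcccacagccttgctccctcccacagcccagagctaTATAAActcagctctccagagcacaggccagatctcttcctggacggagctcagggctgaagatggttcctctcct
TATAAA, searched on both strands, was in 4 of the 35 matrix gene windows (of Col3a1, Postn and Tnc) and in 13.6% of all windows.

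Mxra8, a cell adhesion protein, rose with tamoxifen in flox males. It had 40.9, 31.6 and 31.8 CPM after tamoxifen, against 14.5, 17.5 and 8.79 CPM after vehicle, with no overlap. The log2 fold change was 1.35 ± 0.21 (adjusted p = 0.00619), and it passed in all 11 alternatives. In transgene males it had 20.7, 18.6 and 22.1 CPM after tamoxifen, against 15.3, 12.1 and 11.0 CPM after vehicle, apart but not past the threshold (log2 fold change 0.68 ± 0.21, adjusted p = 0.234). Of its exon length 7.23% overlaps Mxra8os on the other strand, so its counts are uncertain to that extent.

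Aebp1 was lower after tamoxifen in females and had values in the other direction in flox males, without passing in any of these comparisons in the main analysis. In transgene females it had 119, 215 and 212 CPM after tamoxifen, against 296, 289 and 303 CPM after vehicle (log2 fold change -0.69 ± 0.22, adjusted p = 0.196). In flox females it had 288, 183 and 226 CPM after tamoxifen, against 299.9, 304 and 301 CPM after vehicle. Both female pairs were without overlap, with vehicle libraries close together and tamoxifen libraries spread. In flox males it had 163, 185 and 175 CPM after tamoxifen, against 88.4, 104 and 86.3 CPM after vehicle (log2 fold change 0.90 ± 0.24, adjusted p = 0.0707). In transgene males it had 27.1, 54.3 and 53.6 CPM per kilobase after tamoxifen, against 28.2, 36.8 and 41.6 CPM per kilobase after vehicle, and these groups overlapped.

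**Figure D4:**
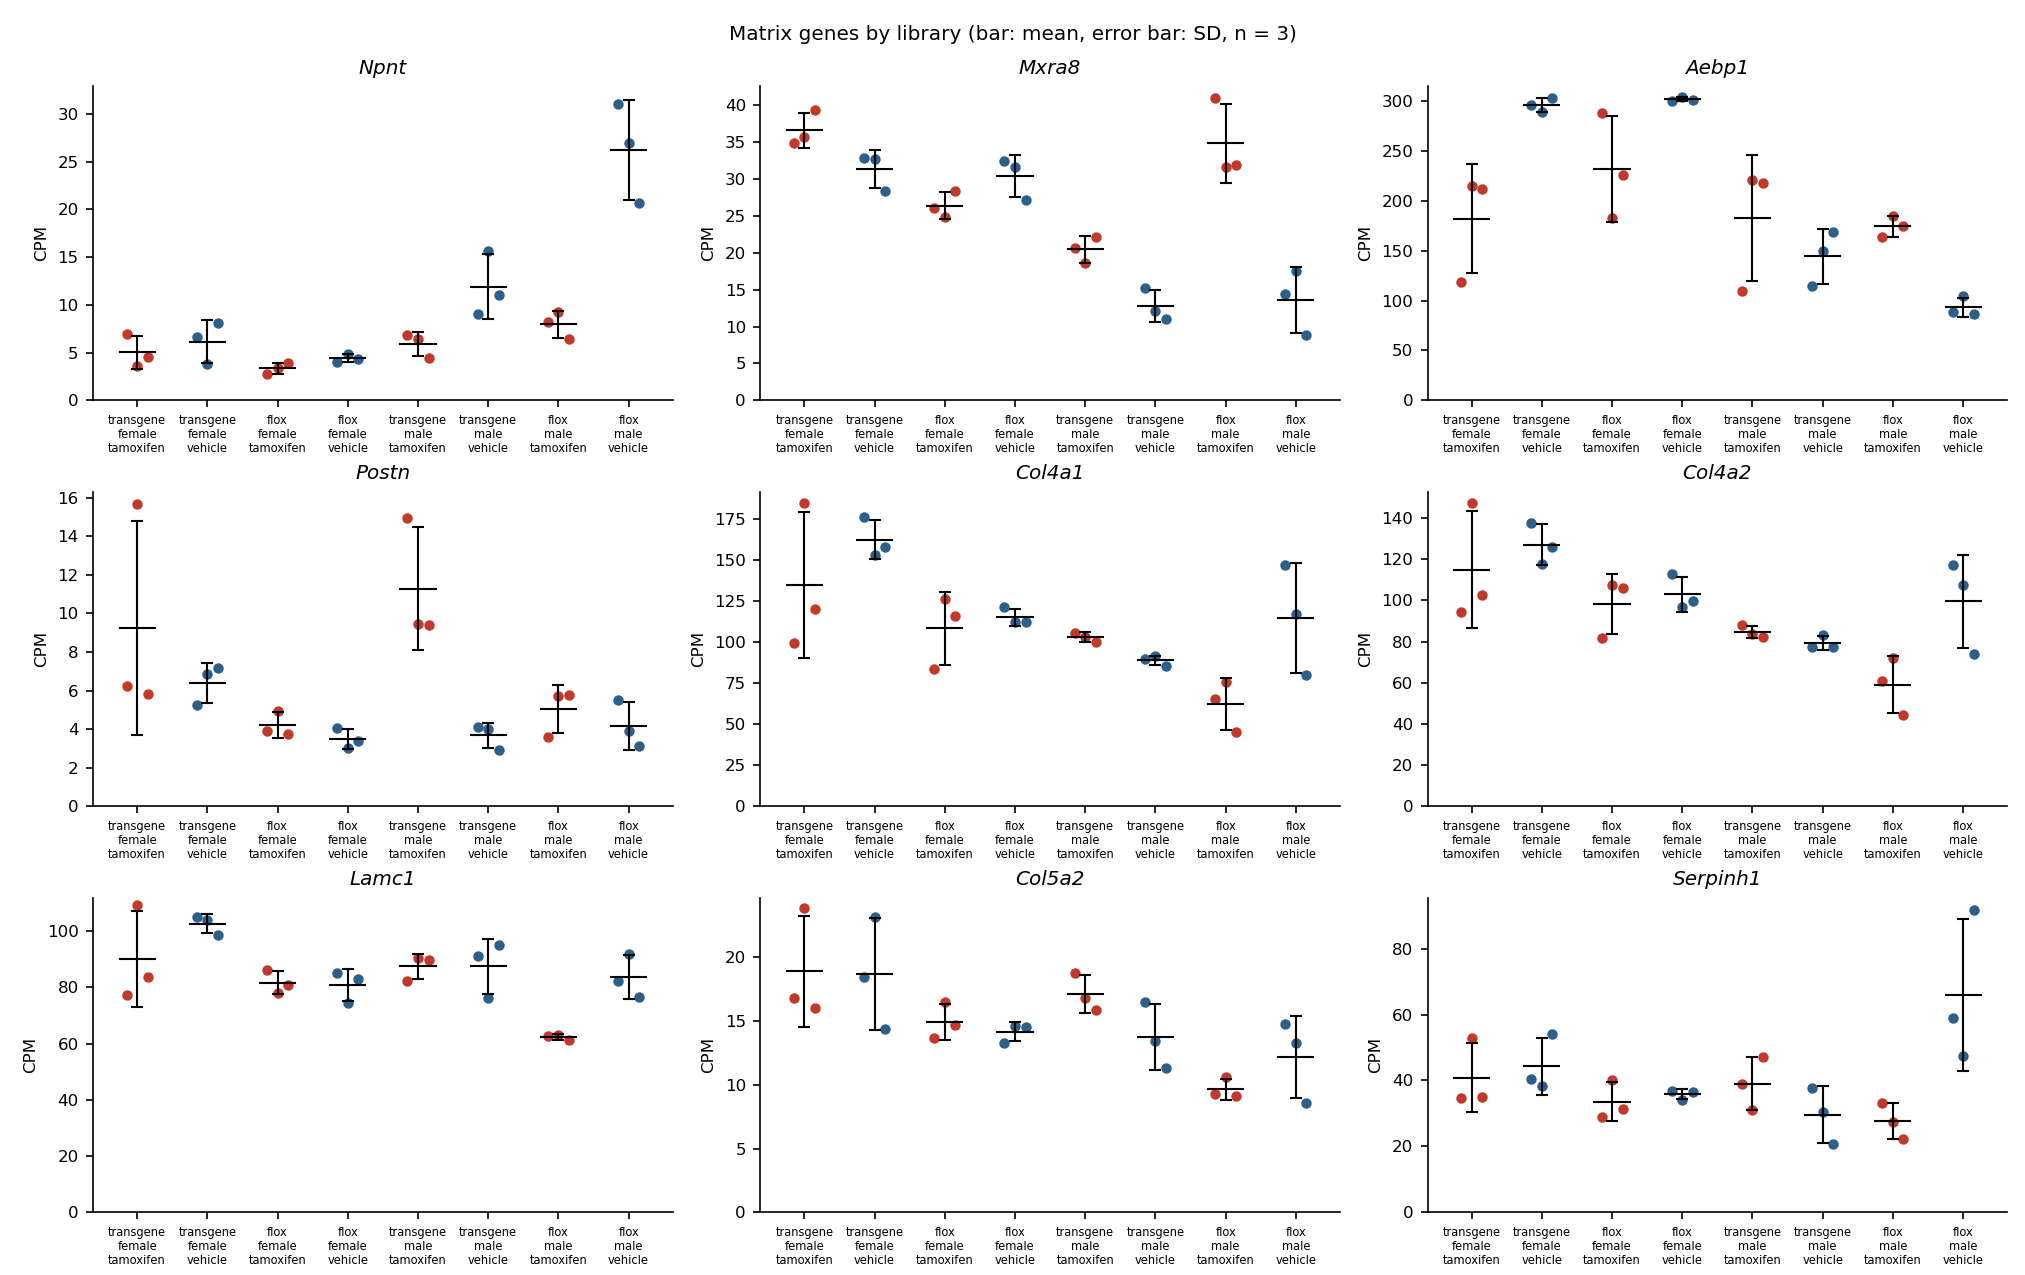
CPM of 9 matrix genes in each library (points, red for tamoxifen and blue for vehicle), with the mean (bar) and SD (error bar, n = 3) of each group. Npnt is high in vehicle-treated flox males alone, Mxra8 is higher with tamoxifen in flox males, and Postn is high in tamoxifen-treated transgene males and in 1 tamoxifen-treated transgene female.

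The 3 small leucine-rich proteoglycans, which bind and space collagen fibrils, had no call in any comparison. Lum (lumican) had 19.2, 16.1 and 13.9 CPM after tamoxifen, against 12.7, 10.9 and 8.76 CPM after vehicle in transgene males, without overlap. Dcn and Bgn overlapped between groups in all 6 comparisons of groups.

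Among processing genes, Loxl1, a lysyl oxidase needed for elastic fibres, was higher in transgene males after tamoxifen. It had 14.1, 10.8 and 13.6 CPM in transgene males, against 8.19, 9.08 and 6.79 CPM in flox males (log2 fold change 0.67 ± 0.16, adjusted p = 0.0297). Of the 5 calls between transgene and flox males after tamoxifen (Lamc1, Postn, Col5a2, Loxl1 and Col6a2), 3 were left without transgene library 1. Without transgene library 2, 4 were left (all but Col6a2), without transgene library 3, 2 were left, and without flox library 1, 2 or 3, 0 were left. Without flox library 2 Col3a1 and Col15a1 were called instead, and with these 2 groups alone in the fit, which leaves out the libraries with conflicting labels, 10 genes were called, these 5 among them.

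Serpinh1, the collagen chaperone, had 33.2, 27.6 and 22.2 CPM after tamoxifen, against 58.9, 47.3 and 91.8 CPM after vehicle in flox males. The groups did not overlap and the log2 fold change of -1.26 ± 0.29 did not pass by edgeR (adjusted p = 0.0508). DESeq2 and limma-voom called Serpinh1, as did edgeR without vehicle library 2. Vehicle library 3, which was lowest for 40 matrix genes, was highest for this one. Serpinh1 is also a heat shock gene, and in the same library Hspa1a, a heat shock chaperone picked after its values were seen, had 249.8 CPM, against 10.7 and 7.05 CPM in the other 2 vehicle libraries of flox males. The part of that library's heat shock transcripts in the Serpinh1 value was not tested. Timp3, an inhibitor of matrix proteases, was the matrix gene with the smallest p in transgene females, at 149.9, 149.5 and 130.04 CPM after tamoxifen, against 100.2, 116 and 105 CPM after vehicle (log2 fold change 0.43 ± 0.09, adjusted p = 0.0639). Of its exon length 21.28% overlaps Syn3, which makes its counts uncertain. The same holds for Fbn1, with 20.14% over Gm9913, and Nid2, with 8.45% over Rtraf.

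Whether the tamoxifen response differed between transgene and flox mice was tested as an interaction. In males 0 of 43 matrix genes passed by edgeR, with 18 higher and 2 lower at an unadjusted p under 0.05, where 4.42% and 3.83% of all genes were. The median difference of the responses was 0.52, against 0.01 for all genes, and 37 of 43 were above 0. These counts are of genes that moved together by library, so the shares of all genes are no test of them. The smallest p belonged to Col6a2 (difference 1.13 ± 0.29), Serpinh1 (1.66 ± 0.41) and Postn (1.35 ± 0.36), each at an adjusted p of 0.323. DESeq2 called 4 (Col1a1, Col4a1, Col6a2 and Serpinh1), limma-voom called 0, and edgeR called Col6a2 when flox vehicle library 3 was left out. Of all genes 0.0128% passed. In females 0 of 43 passed, as did 0 of all genes, with 1 higher (Mxra8) and 0 lower at an unadjusted p under 0.05, where 3.74% and 3.80% of all genes were, and 0 by DESeq2 and limma-voom.

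The difference between the female and the male response was tested in each genotype. In flox mice 3 of 43 matrix genes differed, where 0.266% of all genes did. The response of Npnt in females minus that in males was 1.31 ± 0.24 (adjusted p = 0.0300), since Npnt had 2.75, 3.37 and 3.93 CPM after tamoxifen and 4.07, 4.89 and 4.36 CPM after vehicle in flox females. That of Aebp1 was -1.29 ± 0.18 (adjusted p = 0.00463). For Mxra8 it was -1.57 ± 0.27 (adjusted p = 0.0446), with 26.0, 24.8 and 28.3 CPM after tamoxifen, against 32.4, 31.6 and 27.1 CPM after vehicle in flox females. Aebp1 kept its call when any of the 12 flox libraries was left out and lost it with all 24 libraries in the fit (adjusted p = 0.154). Npnt lost its call without vehicle library 1 or 3 or tamoxifen library 2 or 3 of the females, or without vehicle library 1 or tamoxifen library 1 or 3 of the males. Mxra8 kept its call only without vehicle library 2 or 3 of the males and lost it without any other of the 12 libraries. In transgene mice 0 of 43 passed by edgeR, with 1 higher and 3 lower at an unadjusted p under 0.05, where 3.69% and 4.61% of all genes were. DESeq2 and limma-voom called 0 there as well, and 0.0255% of all genes passed by edgeR.

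By level, females were above males without overlap for 2 of the 43 genes (4.65%), where 5.94% of all genes were. These were Lamb2, at 191 to 265 CPM in females and 107 to 159 CPM in males, and Timp3, at 78.4 to 149.9 CPM in females and 41.6 to 73.8 CPM in males. No matrix gene was higher in males without overlap, where 9.79% of all genes were.

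Genes that act on or with the matrix were read from 5 further lists. Of 28 collagen synthesis enzymes tested, P4ha1 and P4ha2, catalytic subunits of the prolyl hydroxylase that stabilises the collagen helix, fell in flox males, where 1.54% of all genes fell, and no enzyme passed in another comparison. P4ha1 had 26.2, 26.7 and 25.4 CPM after tamoxifen, against 50.8, 39.8 and 94.1 CPM after vehicle (log2 fold change -1.24 ± 0.26, adjusted p = 0.0356). As for Serpinh1, vehicle library 3 was the highest. For P4ha2 the log2 fold change was -0.83 ± 0.19 (adjusted p = 0.0419).

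Of 25 TGF-beta signalling genes, 3 were higher and 0 lower in transgene than in flox males after tamoxifen, where 2.76% of all genes were higher and 2.46% lower. Tgfb2, a ligand of the pathway that drives collagen transcription, had 30.8, 33.7 and 35.5 CPM in transgene males, against 19.1, 17.1 and 19.6 CPM in flox males (log2 fold change 0.84 ± 0.09, adjusted p = 0.00066). It was also higher after vehicle (0.52 ± 0.09, adjusted p = 0.0217), together with Acvr1b, a receptor gene of the TGF-beta family (0.68 ± 0.13, adjusted p = 0.0273), where 0.384% of all genes were higher. The pathway's repressors Ski (0.48 ± 0.11) and Skil (0.77 ± 0.14) were higher after tamoxifen too. Skil had 16.8, 17.0 and 15.6 CPM in tamoxifen-treated transgene males and 9.42, 8.37 and 11.0 CPM in tamoxifen-treated flox males, against 17.0, 14.9 and 17.7 CPM in vehicle-treated flox males, so it also fell in flox males (-0.78 ± 0.14, adjusted p = 0.0105).

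Of 25 matrix receptors, 3 were higher in transgene than in flox males after tamoxifen, the integrin chain Itgav (0.52 ± 0.12), dystroglycan Dag1 (0.38 ± 0.10) and the sarcoglycan Sgcb (0.30 ± 0.07), and Sgcb fell in flox males (-0.32 ± 0.07). Of 22 further collagen genes tested in males, Col22a1, a collagen of muscle and tendon junctions, was higher in transgene males after tamoxifen (0.80 ± 0.16) and Col20a1 lower (-0.998 ± 0.24), and Col20a1 was lower after vehicle as well (-1.29 ± 0.25). Of 21 other matrix proteases tested in males, Adamts9, which cleaves proteoglycans, fell in flox males (-1.30 ± 0.29). All are log2 fold changes past the threshold by edgeR. Of all genes 2.76% were higher and 2.46% lower in transgene males after tamoxifen, 0.563% were lower after vehicle, and 1.54% fell in flox males.

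Much of the interstitial matrix is made by cells other than muscle fibres, but the cell source of these transcripts was not tested. In whole muscle fewer cells of a type and less RNA per cell cannot be told apart. The 15 markers of fibroblasts and fibro-adipogenic progenitors summed to 604 to 707 CPM in tamoxifen-treated and 482 to 708 CPM in vehicle-treated transgene males. In flox males they summed to 635 to 743 CPM after tamoxifen and 500.1 to 771 CPM after vehicle. These ranges overlapped. Of the 13 tested, Mfap4 rose in transgene males, where 0.512% of all genes rose. It had 5.85, 5.28 and 4.51 CPM after tamoxifen, against 2.17, 1.41 and 2.04 CPM after vehicle (1.47 ± 0.24, adjusted p = 0.0114). All 13 had log2 fold changes above 0 in transgene males. Of 15628 genes tested, 4574 were above 0 in males of both genotypes and 3443 in transgene males alone. In flox males the same 13 lay on both sides of 0, from -0.50 for Ly6a to 0.45 for Smoc2, with none past the threshold. Tcf21, a marker of the same list with counts too low for the test in males, was at 0 in all libraries of 4 groups, both vehicle-treated male groups among them.

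The 10 tendon markers summed to 209 to 238 CPM in tamoxifen-treated and 147 to 203 CPM in vehicle-treated transgene males, without overlap. In flox males the sums were 155 to 291 CPM after tamoxifen and 204 to 284 CPM after vehicle. The 7 adipocyte markers summed to 16.8 to 32.0 CPM after tamoxifen and 6.11 to 16.1 CPM after vehicle in transgene males, and to 16.5 to 124 CPM after tamoxifen and 33.9 to 65.2 CPM after vehicle in flox males. The 12 endothelial markers, from cells that make much of the type IV collagen, summed to 279.5 to 366 CPM after tamoxifen and 314 to 450.1 CPM after vehicle in flox males. Thus the sums of tendon and adipocyte markers were higher with tamoxifen in transgene males, where fibrillar collagen values were also higher. These differences rest on the vehicle group with conflicting labels. The tendon sums of tamoxifen-treated transgene males lay within the ranges of both flox male groups. Endothelial sums overlapped in flox males, with a mean of 335 CPM after tamoxifen and 401 CPM after vehicle. Of the 12 endothelial markers 11 had log2 fold changes below 0 in flox males, where Col4a1 and Col4a2 fell. Their median was -0.22 and none passed the threshold by edgeR (smallest adjusted p = 0.148). Of 15628 genes tested, 4512 were below 0 in males of both genotypes and 3443 in flox males alone. The 12 markers share the same libraries, so their count is no test. Between the genotypes after vehicle, adipocyte markers summed to 6.11 to 16.1 CPM in transgene males, against 33.9 to 65.2 CPM in flox males. The 6 blood cell markers summed to 315 to 401 CPM in transgene males, against 571 to 1073 CPM in flox males. Tendon markers summed to 147 to 203 CPM in transgene males, against 204 to 284 CPM in flox males, a small gap. All of these sums were without overlap between the vehicle-treated males. Mfap4 was lower there (-1.18 ± 0.24, adjusted p = 0.0424). None of these marker genes but Mfap4 passed in the male tamoxifen comparisons, and their part in the matrix results was not tested. The 11 muscle fibre markers also did not overlap after vehicle, at 177311 to 211360 CPM in transgene males, against 150976 to 164810 CPM in flox males. Their part was not tested either.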

How the data were processed

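Total RNA of gastrocnemius was sequenced in 24 libraries. The authors deposited raw whole-number counts for each Ensembl gene ID in 3 tables. The tools STAR, featureCounts and limma and the builds GRCm38 and mm10 are named per the submitters' processing notes. The sources used here give no versions, library kit or strand setting, so overlapping genes are uncertain. Symbols and gene coordinates come from the GENCODE annotation of GRCm38, and promoter windows from RefSeq (GRCm38.p6).

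Groups follow the labels, and the 3 transgene male libraries whose labels conflict were placed by title. The labels do not state that replicates are separate animals, so p-values measure only how these libraries vary, which may be technical. Within groups the 24 replicate pairs differed by more than sampling noise (chi-square per degree of freedom 8.34 to 104). CPM were TMM-scaled over all 24 libraries, and CPM per kilobase divide by exon length.

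Tests used R 4.3.3 and edgeR 4.0.16: low-count filter (minimum count 10, minimum total 15), TMM scaling, the robust quasi-likelihood test and Benjamini-Hochberg adjustment over all genes tested, with a threshold of 0.05. Females were fitted per table and males over all 12 male libraries. Differences of responses were interactions. Alternatives were DESeq2 1.42.0, its size factors, limma-voom (limma 3.58.1), no filter, other sets of libraries in the fit, a replicate block in flox females and each replicate left out. The procedure was tested on simulated data. Full statistics are given for matrix genes past the threshold and for the 3 smallest p-values per comparison, and for up to 4 genes past it per other list. Some other matrix genes are given with their values as well. The matrix genes and lists were chosen with earlier results of these data known. Not every result of the other lists is reported here. In flox females same-numbered libraries did not deviate together, so the numbers were not treated as pairs.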

Additional observations from a re-analysis of the deposited data

Results flagged for a closer look

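In flox mice the tamoxifen response of 3 matrix genes differed between females and males by edgeR's quasi-likelihood test of the difference itself. The difference (female minus male log2 fold change) was 1.31 ± 0.24 for Npnt (adjusted p = 0.0300), -1.29 ± 0.18 for Aebp1 (adjusted p = 0.00463) and -1.57 ± 0.27 for Mxra8 (adjusted p = 0.0446). Npnt was lower after tamoxifen in both sexes, with log2 fold changes of -0.40 in females and -1.72 in males. Aebp1 had -0.38 in females and 0.90 in males, and Mxra8 -0.20 in females and 1.35 in males. Over the alternatives the adjusted p ran up to 0.202 for Npnt, 0.154 for Aebp1 and 0.135 for Mxra8. Females and males lie in different tables, so sex and table cannot be told apart.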

How the results depend on the processing

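Postn in transgene males and Npnt and Mxra8 in flox males kept direction and call in all 11 alternatives. Counts of called matrix genes changed with the tool. Under DESeq2's test they were 2 in transgene females, 4 in transgene males, 9 in flox males, 17 between genotypes after tamoxifen, 2 after vehicle, 4 for the male interaction and 6 for the sex difference in flox mice. Limma-voom gave 8 after tamoxifen. Without a filter there were 2 in transgene females, 1 in flox females (Aebp1) and 13 for the sex difference in flox mice. With only the 2 groups compared in the fit there were 10 after tamoxifen, 0 after vehicle and 4 in flox males (Lamc1, Npnt, Aebp1 and Mxra8), and with all 24 libraries 1 for the sex difference in flox mice. Calls among all genes moved as well. Over the alternatives they numbered 37 to 941 in transgene females (187 in the main analysis) and 143 to 917 in flox males (452). They numbered 280 to 1312 between genotypes after tamoxifen (817) and 0 to 79 for the male interaction (2). For the sex difference in flox mice they numbered 22 to 757 (43). Larger counts of matrix genes are therefore not particular to the matrix genes. The causes were not tested. Leaving out each replicate in turn gave 0 to 0 calls in transgene females, 0 to 1 in flox females (Aebp1, without tamoxifen library 1), 1 to 1 in transgene males, 2 to 9 in flox males, 0 to 5 after tamoxifen, 0 to 1 after vehicle, 0 to 0 for the female and 0 to 1 for the male interaction, 0 to 0 for the sex difference in transgene and 1 to 3 in flox mice. Genes above 0 then numbered 10 to 32, 17 to 22, 33 to 39, 6 to 15, 34 to 37, 8 to 21, 10 to 34, 33 to 39, 5 to 16 and 30 to 36 of 43 in the same order. The called matrix genes and the 3 with the smallest p in each comparison were followed, and none of their log2 fold changes changed sign under these alternatives. The signs of other matrix genes were not followed. The count above 0 in transgene females was 25, a majority of the 43, and 10, a minority, without tamoxifen library 2. For the female interaction it was 21, and 34, 10 and 33 without transgene tamoxifen library 1, 2 or 3. With the replicate block in flox females 0 matrix genes were called and 21 were above 0, and same-numbered libraries correlated at -0.20, -0.03 and -0.10. Timp1, with as few as 2 counts in a library, is limited by depth.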
